A study of Mus musculus with 10 samples.

Results

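The genes described here are 8 paired immunoglobulin-like receptors of the mouse, Lilra6, Lilra5, Pira2, Pirb, Lilrb4a, Pilra, Pilrb1 and Sirpa, out of 54307 genes in the deposited count table. They were chosen by symbol and matched to Ensembl gene IDs through the symbol column of the deposited log2 table, and all 8 were found. Lilra6 was selected for a pattern of low and high libraries in its own level here, so its values are a description and carry no test. All 8 passed the filter on low counts, as did 12411 genes in all, and the 7 members other than Lilra6 were tested for genotype.

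Paired receptors are families in which closely related proteins have opposite signs. The inhibitory members carry tyrosine motifs (ITIMs) in a long cytoplasmic tail that recruit the phosphatases SHP-1 and SHP-2, whereas the activating members have a short tail and signal through an adaptor, the Fc receptor gamma chain or DAP12, to the kinase Syk. In macrophages they set the threshold for activation and engulfment. PIR-B is the inhibitory receptor and the PIR-A proteins are the activating receptors of a cluster of near-identical mouse genes that bind MHC class I molecules, and SIRPα is the inhibitory receptor for CD47, the "don't eat me" signal.

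The RNA came from macrophages grown from bone marrow, grown for 7 days with L-929-conditioned medium, of male mice 6 to 8 weeks old. The 5 control libraries are from wild-type mice and the 5 knock-in libraries from hWDFY3 KI/KI mice, which are labelled as overexpressing human WDFY3, a scaffold protein of selective autophagy. The labels name neither the strain nor the locus and promoter of the knock-in. The comparison asks what WDFY3 overexpression changes in the macrophage transcriptome. The libraries held 14.6 to 36.4 M estimated counts. Mouse Wdfy3 lay at 99.96 to 121 CPM in the control and 111 to 127 CPM in the knock-in libraries, where CPM is the estimated count scaled to a common library size, and the human transgene was not measured.

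The cultures carried macrophage RNA throughout: the 10 macrophage markers, Adgre1, Csf1r and Cd68 among them, summed to 24550 to 37630 CPM and none was at 0 in any library. Standing apart were 3 libraries, control 1, control 4 and knock-in 4, in which the 12 stromal markers (collagens, Dcn and others) summed to 171, 172 and 104 CPM against 6.39 to 31.5 CPM in the other 7. The neutrophil markers, most of it Mmp8, summed to 81.0 to 296 CPM in the controls and 53.2 to 223 CPM in the knock-ins, with the 3 highest sums, 296, 263 and 223 CPM, in the same 3 libraries, and Ly6g was at 0 in 8 of 10 libraries. The dendritic, lymphocyte and mast cell marker lists each summed to at most 6.10 CPM in every library. The osteoclast markers, Ctsk, Acp5 and Dcstamp among them, summed to 155 to 307 CPM and were also highest there, at 307, 283 and 273 CPM, with Calcr at 0 in all 10 libraries and Oscar in 6. Fewer cells of a type and less RNA per cell cannot be told apart in such bulk samples.

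Lilra6 lies on chromosome 7 among the Pir genes, which were copied from each other, and their starts show it. The upstream bases of 3 cluster members and of the gene most like Lilra6 in pattern, Gm14548, are printed because they are nearly the same letter by letter although the levels of these genes run in opposite directions across the libraries. Lilra5, which lies in the same region and shares no transcript words with the cluster, is shown for contrast. The stretches are those bases within 250 of the RefSeq start that lie before the gene in both RefSeq and GENCODE M21, on the strand of the gene. Capitals mark GAGGAA or its reverse complement TTCCTC, a core that the myeloid factor PU.1 is known to bind.
Lilra6: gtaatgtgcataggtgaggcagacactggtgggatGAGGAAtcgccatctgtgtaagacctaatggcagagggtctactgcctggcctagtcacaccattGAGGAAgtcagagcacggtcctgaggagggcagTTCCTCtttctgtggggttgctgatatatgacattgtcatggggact
Pirb: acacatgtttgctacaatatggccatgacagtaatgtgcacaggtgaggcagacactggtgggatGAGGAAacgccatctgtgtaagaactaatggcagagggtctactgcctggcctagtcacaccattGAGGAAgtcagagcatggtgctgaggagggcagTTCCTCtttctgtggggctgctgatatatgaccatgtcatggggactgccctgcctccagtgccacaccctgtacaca
Pira2: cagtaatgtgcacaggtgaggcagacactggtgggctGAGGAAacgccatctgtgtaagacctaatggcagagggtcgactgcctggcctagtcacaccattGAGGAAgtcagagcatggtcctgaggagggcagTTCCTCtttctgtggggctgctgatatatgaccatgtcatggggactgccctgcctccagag
Gm14548: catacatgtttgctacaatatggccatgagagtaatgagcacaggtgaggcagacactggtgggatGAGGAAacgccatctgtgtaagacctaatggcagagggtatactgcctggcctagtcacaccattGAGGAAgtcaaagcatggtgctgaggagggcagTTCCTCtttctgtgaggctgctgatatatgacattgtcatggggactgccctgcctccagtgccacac
Lilra5: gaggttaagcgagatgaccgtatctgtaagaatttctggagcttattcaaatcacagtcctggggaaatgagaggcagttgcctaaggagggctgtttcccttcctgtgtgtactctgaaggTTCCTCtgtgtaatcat

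Lilra6 (chr7:3915572-3915751, minus strand, GRCm38.p6) had 172 of 180 aligned bases, 95.6%, in common with Pirb (chr7:3720392-3720632, minus strand). It shared the same 95.6% with Pira2 (chr7:3845105-3845301, minus strand) and 95% with Gm14548 (chr7:3898160-3898391, minus strand). Lilra5 (chr7:4237504-4237642, plus strand) shared 83 of 127 aligned bases, 65.4%, with Lilra6. The 4 Pir stretches each hold the searched letters 3 times and Lilra5 holds them once, counting both strands and no overlaps. The share of all promoters in the table that hold the letters in the same stretch was 17.2% for the position of Lilra6, 22.4% for Pirb, 18.6% for Pira2, 21.5% for Gm14548 and 13.7% for Lilra5. The letters thus occur at all 4 Pir starts printed here, those of Pirb and Pira2 as well as those of Lilra6 and Gm14548. TATAAA was found in none of the 5 stretches. Of the cluster starts not printed, that of Gm15922 (Pira1 in RefSeq) held the letters 3 times and that of Gm15448 4 times.

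Lilra6 is an activating-type receptor gene of 3.05 kb of exons (ENSMUSG00000030427, chr7:3908280-3915503, minus strand, GRCm38), and Pira3 is a RefSeq synonym of it. Its level was 32.5, 1.85, 1.44, 18.0 and 2.34 CPM in controls 1 to 5 and 20.0, 21.3, 37.7, 33.2 and 42.8 CPM in knock-ins 1 to 5. Controls 2, 3 and 5 were low, and controls 1 and 4 stood with the 5 knock-ins, so the groups overlap. The higher libraries were not all alike. Control 4 and knock-ins 1 and 2 lay at 18.0 to 21.3 CPM, and control 1 and knock-ins 3, 4 and 5 at 32.5 to 42.8 CPM. The estimated counts behind the low values were 43, 24 and 36, against 327 to 896 in the other 7 libraries, and the highest level was 29.8 times the lowest. The group means were 11.2 ± 13.8 CPM (SD, n = 5) in control and 30.997 ± 10.05 CPM (SD, n = 5) in knock-in. On the log2 CPM scale knock-in lay 2.48 above control, with an SD of 2.04 within the control group and 0.49 within the knock-in group. On the deposited regularized log2 scale, which shrinks differences of low genes, the values ran from 7.42 to 9.19 and the difference was 0.90.

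The 2 control libraries with high Lilra6 are also the 2 controls with much stromal RNA, at 171 and 172 CPM of stromal markers. Knock-ins 1, 2, 3 and 5 had high Lilra6 at stromal sums of 6.39, 19.3, 31.5 and 6.69 CPM. Control 2, with a stromal sum of 17.4 CPM, had low Lilra6. Other marker sums also differ along these libraries. The macrophage sum, most of it Lyz2, was 24550 to 27177 CPM in controls 2, 3 and 5. It was 30599 to 37630 CPM in the other 7 libraries, the same division as for Lilra6. Between the genotypes, 8 of the 10 macrophage markers had negative log2 fold changes, and only Lyz2 and Cd68 positive ones. The sum thus stands for Lyz2 more than for the list. In controls 1 and 4 the neutrophil sum was 296 and 263 CPM and the osteoclast sum 307 and 283 CPM, against 81.0 to 126 and 190 to 225 CPM in the other 3 controls. The part of these cell types in the level of Lilra6 was not tested. Leaving out control 1, control 4 and knock-in 4 removes both controls with high Lilra6, and the log2 difference without them was 3.89.

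**Figure D1:**
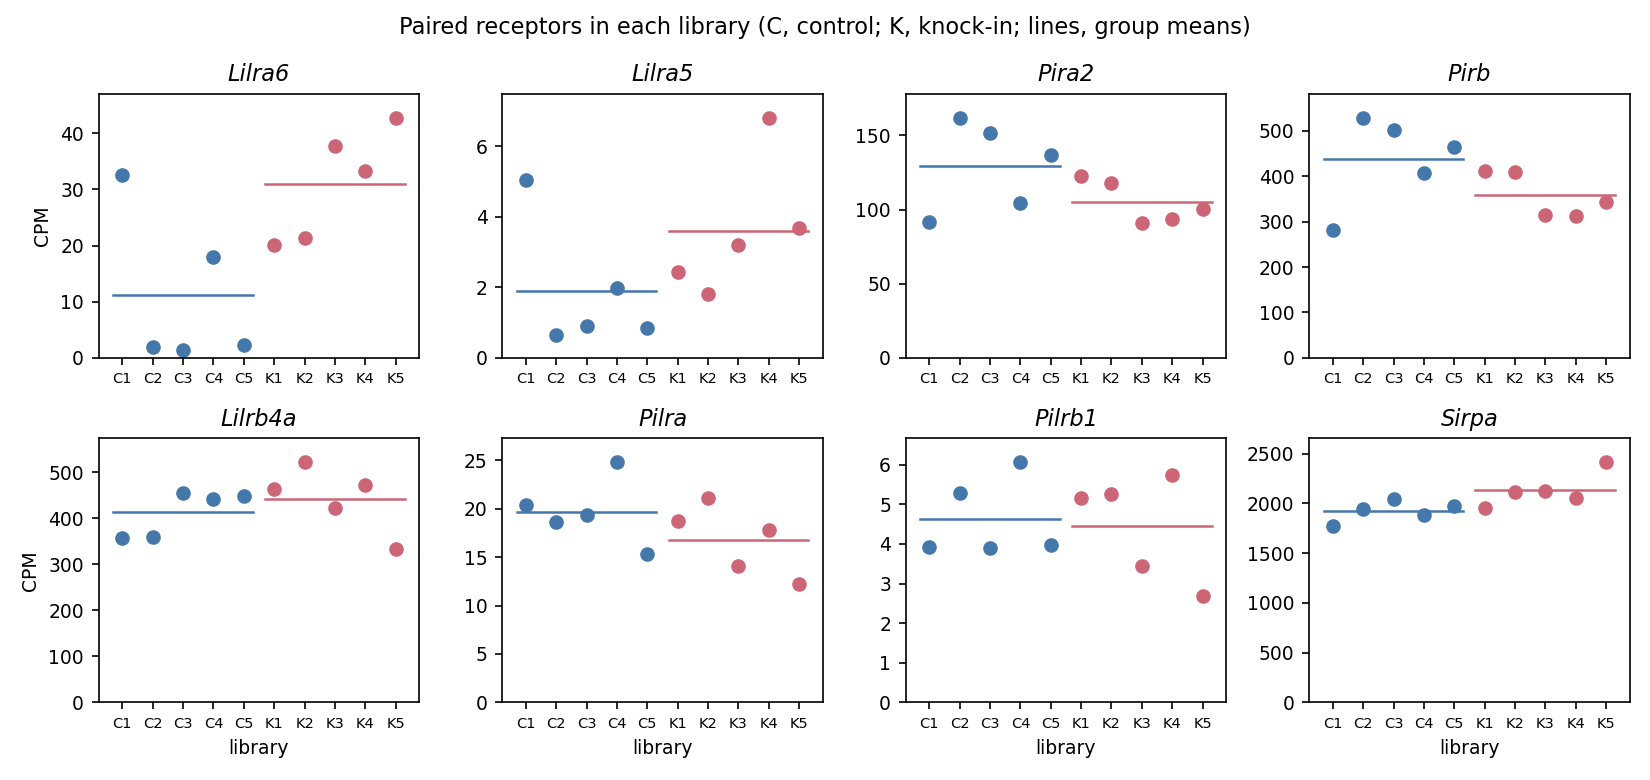
Level in CPM (vertical axes, from 0) of the 8 receptors in each of the 5 control (blue, C1 to C5) and 5 knock-in (red, K1 to K5) libraries, with lines at the group means. Lilra6 is low in C2, C3 and C5, from 1.44 to 2.34 CPM, and Lilra5 is lowest in the same 3, whereas Pira2 and Pirb are highest there.

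Lilra5 encodes a short-tailed receptor of the same family (ENSMUSG00000070873, chr7:4237754-4243463, plus strand), 329 kb from the start of Lilra6. Its level was low, at 5.05, 0.645, 0.899, 1.98 and 0.845 CPM in controls 1 to 5 and 2.44, 1.82, 3.19, 6.82 and 3.68 CPM in knock-ins 1 to 5. Controls 2, 3 and 5 were again the lowest libraries, and knock-in 4 was the highest. The log2 fold change was 0.92 ± 0.59 (SE), with an adjusted p of 0.842 in edgeR's quasi-likelihood test. Leaving out control 1 alone gave 1.66 ± 0.44 (adjusted p 0.545) and leaving out knock-in 4 alone gave 0.55 ± 0.57 (adjusted p 0.838), so single libraries set its size. Without control 1, control 4 and knock-in 4 it was 1.82 ± 0.30 with an adjusted p of 0.0307, which passes the threshold of 0.05 and rests on 3 control and 4 knock-in libraries. In that fit 38 of 12485 genes, 0.304%, were called, 0.184% of all as higher in knock-in, and the 3 controls left are the 3 with low Lilra6. None of the 2079 distinct 31-base words in the annotated transcripts of Lilra5 occurs in another gene, so it shares none with the cluster.

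Pirb, the inhibitory receptor of the cluster (ENSMUSG00000058818, chr7:3711409-3720391, minus strand), had the opposite pattern. It lay at 282, 530, 502, 406 and 465 CPM in controls 1 to 5 and at 411, 410, 315, 312 and 342 CPM in knock-ins 1 to 5. Controls 2, 3 and 5, low in Lilra6, were the 3 highest in Pirb, and control 1 was the lowest of all 10. The log2 fold change was -0.29 ± 0.16 (SE, adjusted p 0.819, edgeR), and without the 3 libraries rich in stromal RNA it was -0.43 ± 0.097 (adjusted p 0.159).

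Pira2, an activating receptor (ENSMUSG00000089942, chr7:3836812-3845051, minus strand), followed Pirb and not Lilra6 in its estimated counts. Its levels were 91.8, 162, 152, 104 and 137 CPM in the controls and 123, 118, 90.96, 93.8 and 100.1 CPM in the knock-ins. The same 3 controls were highest, and the groups overlap through controls 1 and 4. Its log2 fold change was -0.30 ± 0.16 (SE, adjusted p 0.812, edgeR). Without the 3 libraries it was -0.48 ± 0.10 (adjusted p 0.155). Sequence sharing limits this value: 96.7% of its 31-base words occur in another gene and 88.1% in Gm15922, which RefSeq calls Pira1. How reads were split between the pair is uncertain, and Gm15922 ran the other way. Gm15922 lay at 80.7, 33.5, 26.4, 49.1 and 26.8 CPM in controls 1 to 5. In knock-ins 1 to 5 it lay at 50.7, 55.6, 75.1, 69.5 and 86.4 CPM, so it was lowest where Pira2 was highest. Whether Pira2 itself follows Pirb was not tested.

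Lilrb4a, an inhibitory receptor on chromosome 10 also known as gp49B, did not follow Lilra6. The symbol leads to ENSMUSG00000062593, which M21 names Gm49339, a model that spans both Lilr4b and Lilrb4a (chr10:51480612-51496613, plus strand). It lay at 358, 360, 454, 442 and 448 CPM in the controls and 464, 522, 422, 473 and 333 CPM in the knock-ins. Controls 3, 4 and 5 were alike, so the low-Lilra6 libraries are not set apart, and its log2 fold change was 0.10 ± 0.12 (SE, adjusted p 0.903, edgeR). The gene that M21 itself names Lilrb4a (ENSMUSG00000112148) had 473 ± 58.8 CPM (SD, n = 5) in control and 501 ± 68.7 CPM (SD, n = 5) in knock-in, with a log2 fold change of 0.083 ± 0.10 (SE). The models share 96.1% of the words of the first, so these are not separate measurements.

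Pilra and Pilrb1 form an inhibitory and activating pair on chromosome 5. Pilra (ENSMUSG00000046245, chr5:137821952-137836281, minus strand) lay at 20.4, 18.6, 19.4, 24.8 and 15.3 CPM in the controls and at 18.7, 21.1, 14.1, 17.8 and 12.2 CPM in the knock-ins. Control 4 was highest and knock-in 5 lowest, and the log2 fold change was -0.24 ± 0.16 (SE, adjusted p 0.842, edgeR). Pilrb1 (ENSMUSG00000066684, chr5:137852147-137858106, minus strand), whose protein pairs with DAP12, lay at 3.92, 5.29, 3.90, 6.07 and 3.96 CPM in the controls and at 5.17, 5.27, 3.45, 5.74 and 2.68 CPM in the knock-ins. The 2 groups cover nearly one range, and its log2 fold change of -0.068 ± 0.21 (SE, adjusted p 0.974, edgeR) took the other sign in 3 of 18 alternative settings. Pilrb1 shares 42.8% of its words with Pilrb2, so that pair is uncertain too.

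Sirpa, on chromosome 2 (ENSMUSG00000037902, chr2:129592835-129632228, plus strand), encodes the SIRPα receptor and was by far the most abundant member. It lay at 1775, 1940, 2046, 1877 and 1975 CPM in the controls and at 1952, 2111, 2121, 2053 and 2414 CPM in the knock-ins. Knock-in 5 was highest and control 1 lowest, with knock-in 1 inside the control range. The log2 fold change was 0.15 ± 0.064 (SE), with an unadjusted p of 0.0395 and an adjusted p of 0.787 (edgeR). Only 2 of its 5103 words, 0.0392%, occur in another gene.

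**Figure D2:**
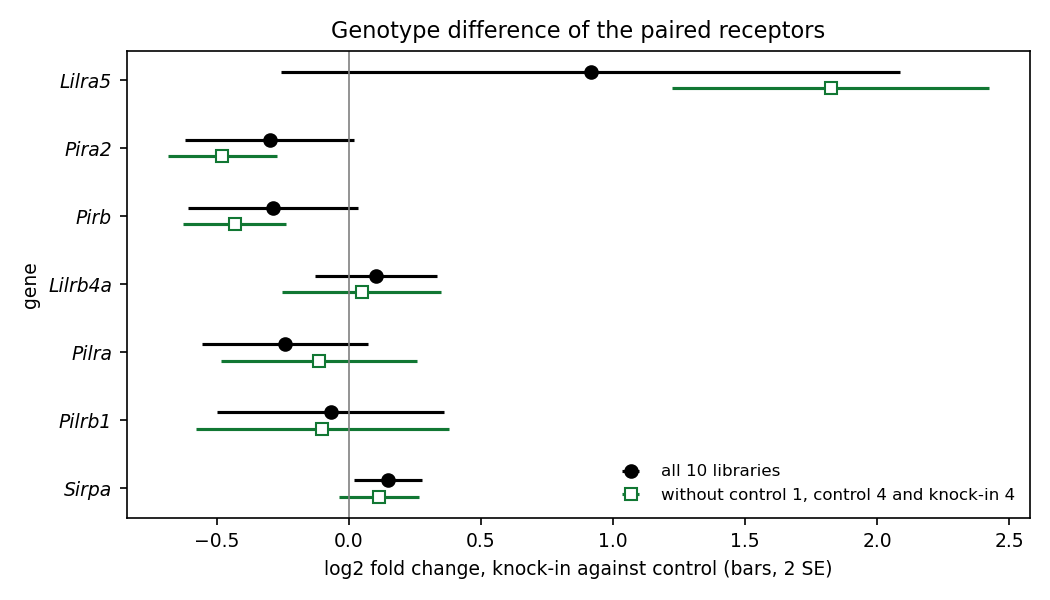
Log2 fold change of knock-in against control (horizontal axis) for the 7 tested receptors, with bars of 2 SE, from all 10 libraries (filled circles) and without control 1, control 4 and knock-in 4 (open squares). Lilra5 lies at 0.92 and at 1.82, Pirb and Pira2 lie below 0 in both, and Sirpa lies at 0.15 from all libraries.

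Of the 7 tested members, 0 passed an adjusted p of 0.05, in edgeR and in DESeq2 alike, where 0.0806% of all tested genes passed in edgeR and 0.378% in DESeq2. At an unadjusted p under 0.05 in edgeR, 1 member, Sirpa, passed, against 6.21% of all genes. The groups of no member were apart, where 1.32% of all genes had groups that do not overlap. Of the 7 log2 fold changes 3 were positive and 4 negative, with a median of -0.068, and over all genes tested 5998 of 12410 were positive with a median of -0.0047.

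Per kb of exon the control levels ordered as Sirpa at 391 ± 20.8, Lilrb4a at 207 ± 24.6, Pirb at 97.8 ± 21.96 and Pira2 at 37.4 ± 8.76 CPM per kb (SD, n = 5 each). Below them came Pilra at 6.37 ± 1.12, Lilra6 at 3.68 ± 4.52, Pilrb1 at 2.36 ± 0.51 and Lilra5 at 0.894 ± 0.875 CPM per kb. In the controls the spread of Lilra6 covers the levels of both of its neighbours in that order, Pilra and Pilrb1. In the knock-ins Lilra6 stood at 10.2 ± 3.30 CPM per kb, above Pilra at 5.43 ± 1.16, and Pilrb1 at 2.28 ± 0.68 and Lilra5 at 1.70 ± 0.92 did not differ beyond their spread. Inhibitory members thus did not all stand above the short-tailed ones. Sirpa, Lilrb4a and Pirb lay above the short-tailed members in both groups. Pilra lay below the short-tailed Pira2 in both and below Lilra6 in the knock-ins. The lowest means in both groups were those of the short-tailed Pilrb1 and Lilra5. The rank of Lilrb4a depends on the gene model, since the entry that M21 itself names Lilrb4a had 90.5 ± 11.2 CPM per kb (SD, n = 5) in control, below Pirb.

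The Pir cluster was taken as Lilra6 and the genes within 0.5 Mb of it that share at least 10% of its 31-base words. The rest of chromosome 7 was not searched by this rule. The 10 genes were Pirb, Gm15922, Gm15930, Gm15925, Gm15448, Pira2, Gm10693, Gm14548, Lilra6 and Gm15931. M21 annotates Gm15925, Gm15930, Gm10693 and Gm15931 as unprocessed pseudogenes and Gm15922 as a polymorphic one. Of the 3152 words of Lilra6, 49.6% occur in at least 1 other gene, 33.5% in Pirb, 27.0% in Gm14548 and 24.7% in Pira2. Of the words of Pirb, 43.8% occur elsewhere, 23.1% in Lilra6. A read whose words all occur in the same other gene cannot be given to 1 gene. The levels of single cluster members thus depend on how Salmon shared such reads out. Reads were 100 bases long per the labels, so the percents of shared 31-base words are not percents of such reads.

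**Figure D3:**
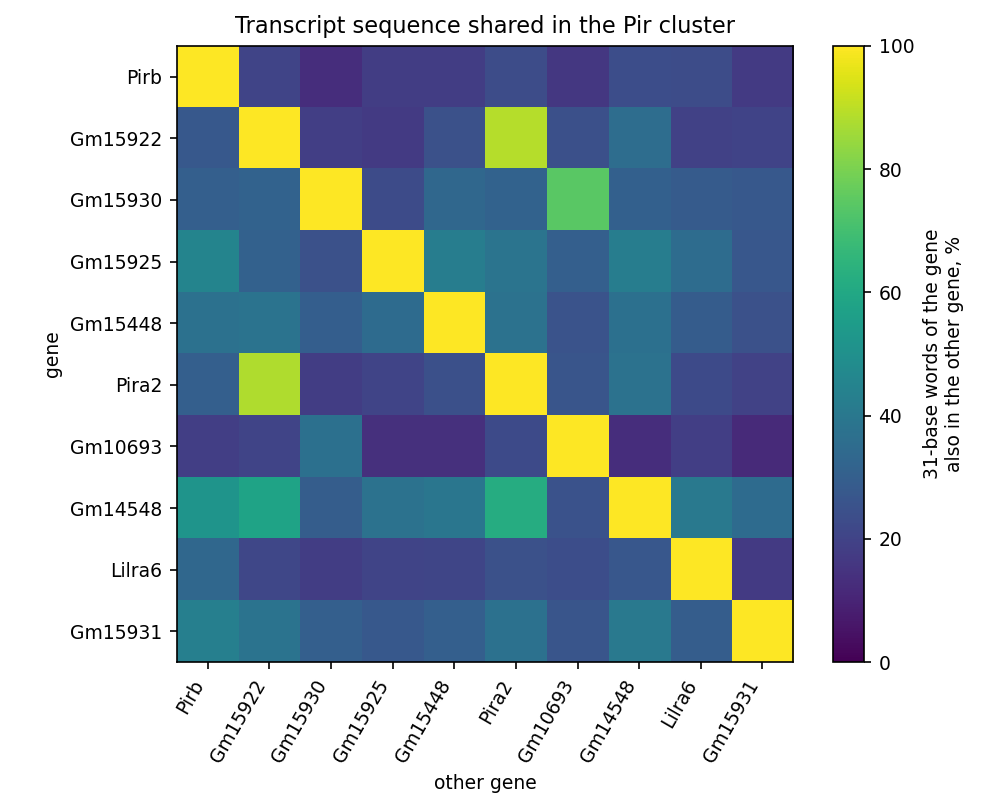
Percent of the 31-base words of each Pir cluster gene (rows) that occur in each other gene of the cluster (columns), by colour from 0 to 100%. Pira2 and Gm15922 are the closest pair at 88.1% and 88.8%, and the least shared is Gm10693 with 11.8% of its words in Gm15931.

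Summed over the 10 genes, the cluster gave 742, 756, 704, 720 and 657 CPM in controls 1 to 5 and 775, 762, 789, 798 and 863 CPM in knock-ins 1 to 5. The knock-ins were all above the controls, but narrowly, with 756 CPM in control 2 and 762 CPM in knock-in 2. The highest sum was only 1.31 times the lowest. Of all single genes tested, 1.32% had groups that do not overlap. Without Pirb and Pira2 the other 8 genes gave 368, 64.1, 49.6, 210 and 54.8 CPM in the controls and 240, 235, 383, 392 and 421 CPM in the knock-ins, an 8.47-fold range. Pirb took 38.0, 70.1, 71.4, 56.4 and 70.8% of the cluster in the controls and 53.1, 53.8, 39.9, 39.1 and 39.7% in the knock-ins. Lilra6 took 4.38, 0.245, 0.204, 2.50 and 0.356% in the controls and 2.59 to 4.96% in the knock-ins. Across these libraries, then, the makeup of the cluster varied more than its sum. Pirb and Pira2 together took 91.5 to 92.9% of it in controls 2, 3 and 5. Their share was 69.0 to 70.9% in control 4 and knock-ins 1 and 2. It was 50.4 to 51.5% in control 1 and knock-ins 3, 4 and 5. These sums use the genes that share words with Lilra6 and are a description, with no test.

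**Figure D4:**
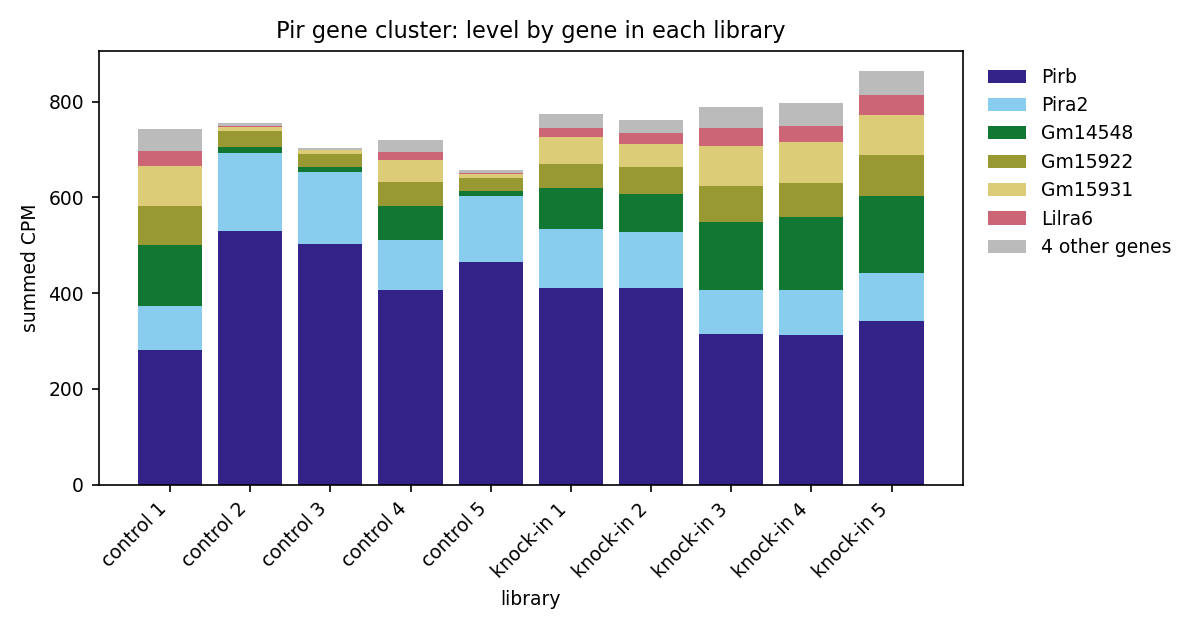
CPM summed over the 10 Pir cluster genes in each library (vertical axis, bars from 0), coloured by gene. The bars reach between 657 and 863 CPM, and Pirb fills 70.1 to 71.4% of those of controls 2, 3 and 5.

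The 6 genes most like Lilra6 in pattern were found by the root-mean-square difference of their mean-centred log2 CPM over the 10 libraries among 10724 genes, where the pattern of Lilra6 itself deviates by 1.81 from its mean. These were Gm14548 at 0.29, Gm15931 at 0.48, Gm10693 at 0.59, Gm15448 at 0.63, Lilra5 at 0.99 and Sbk2 at 1.08. Of the 6, 5 start within 0.5 Mb of Lilra6, and Sbk2, an SH3-domain-binding kinase gene of the same chromosome, starts 1032 kb away. Gm14548, to which the deposited table gives the symbols Pira6, Pira7 and Pira11, lay at 127, 12.5, 9.95, 71.5 and 10.4 CPM in the controls and 85.4, 79.5, 141, 154 and 161 CPM in the knock-ins. Sbk2 lay at 6.13, 1.76, 1.44, 4.05 and 1.43 CPM in the controls and 3.36, 2.54, 6.02, 9.68 and 6.31 CPM in the knock-ins. Sbk2 has its lowest values in controls 2, 3 and 5, like Lilra6, over a smaller range. The stroma-rich control 1 and knock-in 4 are among its 3 highest libraries.

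The mirror image of Lilra6 was closest in Cxcl14 at 0.99, Gm21887 (Erdr1 in the deposited table) at 1.21 and Rims2 at 1.26, none of them on chromosome 7. Cxcl14, a chemokine gene, lay at 10.4, 67.2, 73.4, 15.2 and 51.7 CPM in the controls and 71.3, 11.96, 8.25, 8.97 and 5.64 CPM in the knock-ins. It is high in controls 2, 3 and 5 and also in knock-in 1, where Lilra6 is not low. These likenesses describe 10 libraries that share their culture and sequencing, and were not tested.

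Among the 55 other genes whose span lies within 0.5 Mb of Lilra6, 21 were tested and 0 were called in edgeR, against 0.0806% of all. At an unadjusted p under 0.05 there were 2, against 6.21% of all. These were Mboat7 and Ndufa3, both with negative log2 fold changes of -0.20 and -0.17. DESeq2 and limma-voom also called 0. Of the nearest tested genes, Gm14548 had a log2 fold change of 1.42 ± 0.78 (SE, adjusted p 0.819) and Gm10693 one of 1.28 ± 0.60 (adjusted p 0.802). Leaving out control 1 alone gave 2.21 ± 0.71 (adjusted p 0.790, edgeR) for Gm14548 and 1.88 ± 0.52 (adjusted p 0.698, edgeR) for Gm10693. On the other side Lair1, an inhibitory collagen receptor, had -0.044 ± 0.087 (SE, adjusted p 0.947) and Leng8 0.11 ± 0.12 (adjusted p 0.901). The 2 near genes of the cluster share the order of high and low libraries seen for Lilra6, and those of the other side do not. The 12 tested neighbours outside the cluster and other than Lilra5 varied over 0.20 to 1.45 on the log2 scale between their lowest and highest libraries, the most being Tmc4, against 4.81 for Lilra6.

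Without control 1, control 4 and knock-in 4, 6 of these neighbours passed, all higher in knock-in, where 0.184% of all genes passed as higher: Lilra5, Gm14548, Gm15448, Gm10693, Gm15925 and Gm15931. Gm14548 then had 10.9 ± 1.34 CPM (SD, n = 3) in control and 117 ± 40.4 CPM (SD, n = 4) in knock-in, a log2 fold change of 3.41 ± 0.36 (SE, adjusted p 0.0424, edgeR). Gm10693 had one of 2.76 ± 0.28 (SE, adjusted p 0.00694, edgeR). Gm15925 had estimated counts of 1, 0 and 3 in controls 2, 3 and 5. In knock-ins 1, 2, 3 and 5 it had 66, 59, 151 and 133. It thus passed the filter on low counts only through the knock-ins, and its call carries no weight. All 6 lie near Lilra6 and all but Lilra5 share words with it, and they are no independent support for its pattern.

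**Figure D5:**
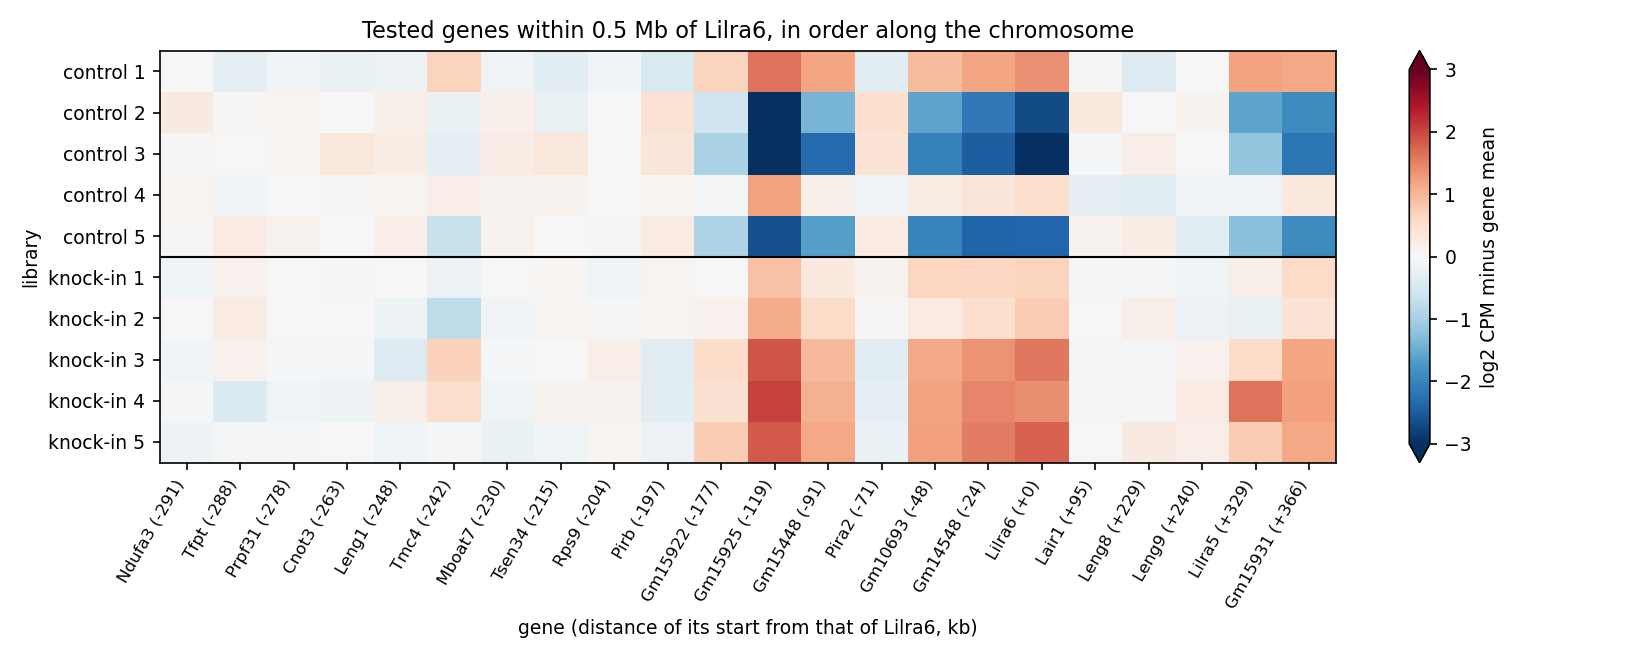
Log2 CPM minus the mean of the gene (colour, blue low and red high, clipped at 3) for the tested genes within 0.5 Mb of Lilra6 in order along the chromosome (columns, distance of starts in kb) in the 10 libraries (rows). Controls 2, 3 and 5 are blue at Lilra6, at 6 other cluster genes and at Lilra5, and faintly red at Pirb and Pira2, while Lair1 and Leng8 show little colour.

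The wider family showed no called gene. Of 30 other paired receptors matched, which include the Cd300, Siglec, Cd200r and Sirpb genes, 25 were tested. In edgeR 0 passed, against 0.0806% of all tested genes, and 1 had an unadjusted p under 0.05, against 6.21% of all. Of the 25, 12 had positive and 13 negative log2 fold changes with a median of -0.028. The 2 with the smallest p were Siglech, a Siglec of plasmacytoid dendritic cells that is also in the dendritic list, and Cd300a. Siglech had 0.299 ± 0.176 CPM (SD, n = 5) in control and 0.734 ± 0.397 CPM (SD, n = 5) in knock-in, a log2 fold change of 1.21 ± 0.45 (SE, adjusted p 0.706, edgeR). Its values lay near the floor, at 0.0860 to 0.567 CPM in the controls and 0.478 to 1.43 CPM in the knock-ins. Cd300a, an inhibitory lipid receptor, had 289 ± 22.1 CPM (SD, n = 5) in control and 315 ± 19.6 CPM (SD, n = 5) in knock-in. Without the 3 libraries 1 of the list passed, Gm14548.

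The signalling genes downstream of the receptors did not pass either. Of 24 adaptors, kinases and phosphatases, all tested, 0 passed in edgeR, against 0.0806% of all tested genes. At an unadjusted p under 0.05 there was 1, Cbl, against 6.21% of all. The log2 fold changes of the 24 lay above 0 for 14 and below for 10, with a median of 0.014. Cbl, a ubiquitin ligase that acts on Syk, had 168 ± 7.28 CPM (SD, n = 5) in control and 193 ± 20.1 CPM (SD, n = 5) in knock-in, a log2 fold change of 0.20 ± 0.071 (SE, adjusted p 0.700, edgeR). Syk, the kinase that the activating adaptors recruit, had 352 ± 17.5 and 382 ± 22.4 CPM (SD, n = 5 each) and a log2 fold change of 0.12 ± 0.057 (SE, adjusted p 0.799, edgeR).

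Of 18 matched ligand genes of the receptors, 15 were tested and 0 passed in edgeR, against 0.0806% of all tested genes. At an unadjusted p under 0.05 there was 1, B2m, against 6.21% of all. The log2 fold changes of the 15 lay above 0 for 8 and below for 7, with a median of 0.030. B2m, the light chain of MHC class I, had 2455 ± 205 CPM (SD, n = 5) in control and 2196 ± 66.3 CPM (SD, n = 5) in knock-in, a log2 fold change of -0.16 ± 0.062 (SE, adjusted p 0.722, edgeR). S100a9, an alarmin that is also among the neutrophil markers, had 5.90 ± 5.79 and 1.57 ± 1.40 CPM (SD, n = 5 each) and an adjusted p of 0.799. DESeq2 and limma-voom called 0 genes of the 3 lists, and the genotype groups of all 6 genes named from them overlap.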

How the data were processed

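Strand-specific poly(A)+ libraries of 10 cultures were sequenced, per the labels' protocols. Salmon 1.6.0 and DESeq2 1.34.0 were used and builds GRCm39 and mm10 are named, with no roles, per the submitters' processing notes. The authors deposited estimated counts per Ensembl gene and a second table of log2 values, on the regularized-log scale by its name. No source used here gives the annotation release or whether counting used strand.

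No library was counted as a copy of another, since within groups the chi-square per gene between pairs ran from 8.75 to 54.5. The counts were rounded, then tested with edgeR 4.0.16 (R 4.3.3): TMM factors, filterByExpr (minimum count 10, minimum total 15), robust quasi-likelihood F-test over 10 libraries without covariates, Benjamini-Hochberg over 12411 genes, threshold 0.05. The SE is the log2 fold change divided by the square root of F. The biological coefficient of variation was 15.6%. Log2 CPM used a prior count of 2. The p-values measure the spread between 10 libraries, each from its own mouse per the labels. The test was checked on simulated data first. Alternatives were RLE factors, DESeq2 1.42.0, limma-voom and limma-trend (limma 3.58.1), 2 filters, a replicate block, leaving out each library, and leaving out control 1, control 4 and knock-in 4.

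Positions, exon lengths and 31-base words came from GENCODE M21 (GRCm38) by gene ID, and promoters from RefSeq (GRCm38.p6). There 5 members had an entry with at least 100 bases before the gene. The build of the counts may differ. For the promoter of Pilrb1, fewer than 100 bases lay before the gene, and none is shown.

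The members and all lists were chosen with earlier results of these data known. Named genes are the 8 members, of each tested list the called genes or the 2 with the smallest p, the 6 genes most like Lilra6 and the 3 most like its mirror image with a mean log2 CPM of at least 1, and the 2 nearest tested genes on each side. Other cluster genes, Mboat7, Ndufa3 and Tmc4 were named after their values were seen.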

Additional observations from a re-analysis of the deposited data

How the results depend on the processing

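Against 10 genes called in all, leaving out 1 library gave 6 to 23, the highest without knock-in 4. DESeq2 called 52, 34 higher and 18 lower in knock-in, and 38 were called without control 1, control 4 and knock-in 4, 23 higher and 15 lower. That last setting also took the called members from 0 to 1 (Lilra5), the called other paired receptors from 0 to 1 (Gm14548) and the called neighbours of Lilra6 from 0 to 6, with log2 fold changes of 1.82 for Lilra5, 3.41 for Gm14548 and 2.76 for Gm10693. It drops both controls with high Lilra6, and the cause was not tested. In the other 17 settings 0 members, 0 other paired receptors and 0 neighbours passed, and 0 signalling genes and 0 ligands passed in any of the 18. The Lilra6 difference of 2.48 lay between 2.03 and 3.14 when 1 library was left out and at 0.90 on the deposited log2 values, which are shrunken. With the replicate number as a block, 12 genes were called and 0 members. Deviations of same-numbered libraries correlated by -0.20, 0.027, 0.039, 0.51 and 0.25, so the numbers were not taken to pair the samples. Shared sequence limits all levels of single Pir genes, and the counts of Lilra5, 13 to 133 per library, limit its precision.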
